A study of Homo sapiens with 4 samples.

Results

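The negative feedback genes of the ERK pathway were examined in MDA-MB-231, a cell line of triple-negative breast cancer, and in a line isolated from it that metastasizes to the lung, LM2-4175, which the authors' table names LM2. They comprised 10 genes, DUSP1, DUSP4, DUSP5, DUSP6, DUSP7, SPRY1, SPRY2, SPRY4, SPRED1 and SPRED2, chosen by name from the 57815 genes of the deposited expression table. RNA-Seq was made of total RNA, with 2 libraries per line and 4 in all, from untreated cells that were grown in the same medium with serum. Nothing in the labels says that the libraries came from separate cultures. LM2-4175 is a single derivative of a single parental line, so the comparison is of 1 line with 1 line. The authors combined the libraries of a cell line in 1 FPKM per gene (fragments per kilobase of transcript, relative to all mapped fragments) with a lower and an upper bound, so no value per library was examined, no SD or p-value could be given, and no difference has a replicate check.

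ERK is the last kinase of the RAS-RAF-MEK-ERK cascade, which carries signals from growth factor receptors to the nucleus. Active ERK induces genes that switch the cascade off again. Among them, the DUSP genes encode phosphatases that remove the activating phosphates from ERK and related kinases, and the Sprouty (SPRY) and Spred (SPRED) genes encode membrane-associated proteins that act upstream of ERK, at the level of RAS and RAF. Expression of such feedback genes is widely read as a sign of ERK output.

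The sequences before the annotated start sites of these genes are given first. Which start sites the cells used was not measured. RefSeq sequences of GRCh38.p14 were matched for 8 of the 10 genes (not for DUSP4 and DUSP5), with 12 start sites in all, and the 250 bases before each start were searched on both strands for the cAMP response element TGACGTCA, the AP-1 site TGANTCA, the ETS core CCGGAA, the E-box CACGTG, the TATA box TATAAA, the CArG box and the NF-kB site. Shown are DUSP1 and SPRY4, whose RNA was higher in LM2-4175, and DUSP6, the most abundant of the genes, for contrast. Capitals mark the motifs found, which did not overlap one another.
DUSP1, chr5:172771196-172771445, minus strand: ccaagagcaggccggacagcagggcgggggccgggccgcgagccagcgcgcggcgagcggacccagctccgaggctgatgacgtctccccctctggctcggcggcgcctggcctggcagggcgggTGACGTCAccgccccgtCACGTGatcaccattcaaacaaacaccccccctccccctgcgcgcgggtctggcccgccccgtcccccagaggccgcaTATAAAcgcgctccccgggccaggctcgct
SPRY4, chr5:142324248-142324497, minus strand: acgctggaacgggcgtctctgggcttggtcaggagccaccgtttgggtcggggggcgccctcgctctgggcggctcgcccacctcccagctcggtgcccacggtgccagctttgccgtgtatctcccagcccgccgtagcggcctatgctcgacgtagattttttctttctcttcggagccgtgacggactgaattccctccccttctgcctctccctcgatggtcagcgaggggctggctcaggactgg
DUSP6, chr12:89352502-89352751, minus strand: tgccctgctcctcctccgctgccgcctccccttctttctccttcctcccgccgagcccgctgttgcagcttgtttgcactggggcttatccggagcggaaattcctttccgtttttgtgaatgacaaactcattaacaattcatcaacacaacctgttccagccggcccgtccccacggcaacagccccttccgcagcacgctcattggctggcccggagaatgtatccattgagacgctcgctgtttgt
DUSP1 had a cAMP response element beginning 125 bases, an E-box 108 bases and a TATA box 30 bases before its start site. Of 35116 promoters of the same length, 1.65% held the cAMP response element, 6.34% the E-box and 10.7% the TATA box. None of the searched motifs was found in the windows of SPRY4 and DUSP6. Elsewhere among the genes, an ETS core was found in 1 window each of SPRY1 and SPRY2 (14.5% of all promoters) and a TATA box at the second start site of SPRED2. The AP-1 site, the CArG box and the NF-kB site were in none of the 12 windows, and were in 6.57%, 1.16% and 5.21% of all promoters. These matches describe the letters of the windows and not the binding of a factor.

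Expression differed between the cell lines for some of the feedback genes and not for others. DUSP5, SPRY4, DUSP1 and DUSP4 were higher in LM2-4175, with FPKM ratios of 4.41, 2.34, 1.90 and 1.85. DUSP6, DUSP7, SPRY1, SPRY2, SPRED1 and SPRED2 were not called in either direction. A gene was called higher or lower where FPKM + 1 changed by at least 1.5-fold and the bounds of the cell lines did not overlap, among 13911 genes with a mean of at least 0.5 FPKM and a status of OK. All 10 genes were among those tested, and 4 of the 10 were called higher and 0 lower, while 4.67% of all genes tested were called higher and 4.61% lower. Their median log2 difference was 0.43, and that of all genes tested was -0.04. The FPKM was higher in LM2-4175 for 7 of the 10 genes and for 45.5% of all genes tested.

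**Figure D1:**
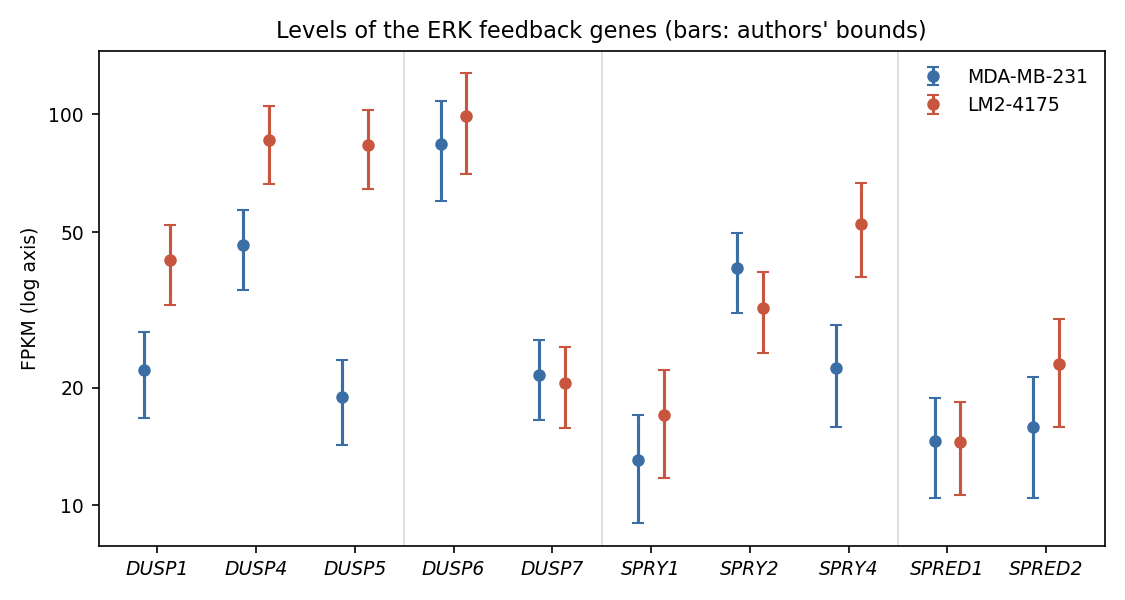
FPKM of the 10 genes (log axis) in MDA-MB-231 (blue) and LM2-4175 (red), with bars for the authors' lower and upper bounds. The bars of the cell lines are apart for DUSP1, DUSP4, DUSP5 and SPRY4 and overlap for the other genes.

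The nuclear phosphatases DUSP1, DUSP4 and DUSP5, grouped after the values were seen, all rose. DUSP5 (ENSG00000138166, chromosome 10 of GRCh37, 112257665 to 112271291, plus strand) encodes a nuclear phosphatase that is selective for ERK and holds it in the nucleus. In MDA-MB-231 its FPKM was 18.9 and the bounds reached from 14.3 to 23.5. In LM2-4175 its FPKM was 83.5, between bounds of 64.3 and 103. The log2 difference of FPKM + 1 was 2.08, above that of 99.1% of the genes tested. Taken from bound to bound, the ratio lay between 2.73 and 7.18. Among the 10 genes, it moved from the 7th highest level in MDA-MB-231 to the 3rd in LM2-4175.

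DUSP1 (ENSG00000120129, chromosome 5, 172195099 to 172198198, minus strand) is an immediate early gene whose product acts on ERK, JNK and p38. MDA-MB-231 expressed DUSP1 at 22.2 FPKM (bounds 16.8 and 27.7), LM2-4175 at 42.3 FPKM (bounds 32.5 and 52.1). The log2 difference was 0.90. From bound to bound the ratio lay between 1.17 and 3.11. The deposited locus of DUSP1 is shared with 3 other genes of the table, which had at most 0.0548 FPKM in either cell line.

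DUSP4 (ENSG00000120875, chromosome 8, 29190581 to 29208201, minus strand) encodes a nuclear phosphatase of ERK and JNK. Its level of 46.3 FPKM (bounds 35.5 and 57.1) in the parental line stood against 85.8 FPKM (bounds 66.2 and 105) in LM2-4175, which is a log2 difference of 0.87. The extremes of its ratio were 1.16 and 2.96. DUSP1 and DUSP4 were thus called on bounds that lay close together, and neither was called at a threshold of 2-fold, at which 2 of the 10 genes, DUSP5 and SPRY4, were called higher and 0 lower (3.23% and 2.9% of all genes tested).

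The cytoplasmic phosphatases DUSP6 and DUSP7, which are selective for ERK, were not called. DUSP6 (ENSG00000139318, chromosome 12, 89741012 to 89746278, minus strand) was the most abundant of the 10 genes in both cell lines. MDA-MB-231 had 84.1 FPKM (bounds 60.0 and 108) of it and LM2-4175 98.8 FPKM (bounds 70.2 and 127), giving a ratio of 1.17 that could lie anywhere from 0.649 to 2.12 within the bounds. In GENCODE 44 a gene that is not in the deposited table overlaps 28.6% of its exon bases. DUSP7 (ENSG00000164086, chromosome 3, 52082935 to 52090587, minus strand) stood at 21.5 FPKM (bounds 16.5 and 26.5) in MDA-MB-231 and at 20.6 FPKM (bounds 15.8 and 25.4) in LM2-4175, with a ratio of 0.958 and extremes of 0.596 and 1.54. The bounds of both genes therefore leave room for a change of more than 1.5-fold.

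Of the Sprouty genes, SPRY4 alone was called. Sprouty proteins sit at the plasma membrane and restrain the activation of RAS and RAF by growth factor receptors. SPRY4 (ENSG00000187678, chromosome 5, 141689992 to 141706020, minus strand) was expressed at 22.4 FPKM (bounds 15.9 and 29.0) in the parental cells and at 52.5 FPKM (bounds 38.4 and 66.6) in LM2-4175. The log2 difference was 1.19, above that of 96.9% of the genes tested, and the ratio of 2.34 had extremes of 1.33 and 4.19. Of the 5 genes that share its deposited locus, FGF1 had 2.19 and 3.76 FPKM, AC005592.2 had 3.16 and 3.84 FPKM, and the other 3 were listed at 0 in both cell lines.

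SPRY2 (ENSG00000136158, chromosome 13, 80910111 to 80915261, minus strand), whose product binds the ubiquitin ligase CBL and the adaptor GRB2, had the lower FPKM in LM2-4175. MDA-MB-231 reached 40.4 FPKM (bounds 31.0 and 49.7) and LM2-4175 32.0 FPKM (bounds 24.5 and 39.6), with overlapping bounds, a log2 difference of -0.32 and extremes of the ratio of 0.494 and 1.28. SPRY1 (ENSG00000164056, chromosome 4, 124317950 to 124324915, plus strand) was at 13.0 FPKM (bounds 9.01 and 17.1) in MDA-MB-231 and 17 FPKM (bounds 11.8 and 22.3) in LM2-4175, a ratio of 1.30 with extremes of 0.690 and 2.47. As a result of these values SPRY2 had 1.80 times the FPKM of SPRY4 in MDA-MB-231 and 0.610 times in LM2-4175, and the bounds of these genes did not overlap in MDA-MB-231 and overlapped in LM2-4175.

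The Spred genes were not called. SPRED1, which brings the RAS inactivator neurofibromin to the membrane and is lost in Legius syndrome, lies on chromosome 15 from 38545037 to 38649450 on the plus strand (ENSG00000166068). Its FPKM was close in value in both lines, with MDA-MB-231 at 14.6 FPKM (bounds 10.5 and 18.8) and LM2-4175 at 14.5 FPKM (bounds 10.7 and 18.4), with a ratio of 0.993 and extremes of 0.568 and 1.76. SPRED2 (ENSG00000198369, chromosome 2, 65537985 to 65659771, minus strand), a related inhibitor of RAS signalling, showed 15.9 FPKM (bounds 10.4 and 21.3) in MDA-MB-231 and 22.9 FPKM (bounds 15.8 and 30.1) in LM2-4175. Its ratio of 1.44 was the nearest below the threshold, and its extremes of 0.742 and 2.88 were the farthest apart of the 10 genes as a ratio of upper to lower extreme, and so was the distance of 34.3% between FPKM and upper bound in MDA-MB-231.

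**Figure D2:**
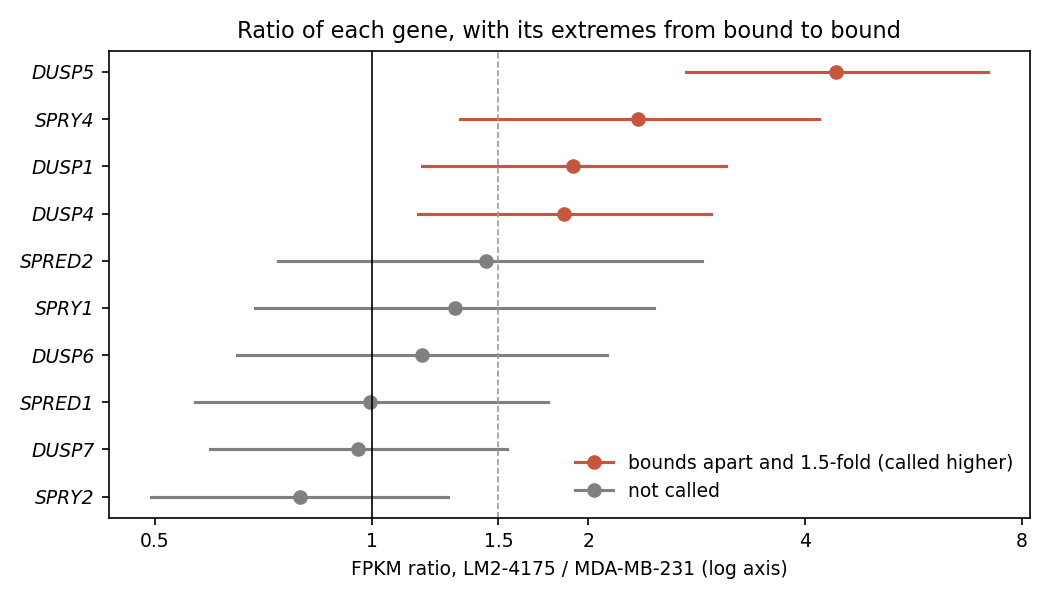
Ratio of FPKM in LM2-4175 to MDA-MB-231 for each gene (points, log axis), with lines from the lower bound in LM2-4175 over the upper bound in MDA-MB-231 to the reverse. The solid vertical line stands at 1 and the dashed line at 1.5. The lines of DUSP5, SPRY4, DUSP1 and DUSP4 start at 2.73, 1.33, 1.17 and 1.16, and those of the other 6 genes cross 1.

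Levels can be compared between the genes because FPKM is scaled to length. In MDA-MB-231 the order was DUSP6, DUSP4, SPRY2, SPRY4, DUSP1, DUSP7, DUSP5, SPRED2, SPRED1 and SPRY1. The bounds of neighbours in this order were apart in 2 of 9 cases, between DUSP6 and DUSP4 and between SPRY2 and SPRY4, and the other neighbours did not differ beyond their bounds. In LM2-4175 the order was DUSP6, DUSP4, DUSP5, SPRY4, DUSP1, SPRY2, SPRED2, DUSP7, SPRY1 and SPRED1, and the bounds of neighbours were apart in 0 of 9 cases. Over all 45 pairs of genes, the bounds were apart in 23 pairs in MDA-MB-231 and in 29 pairs in LM2-4175. The levels of the 10 genes spanned 13.0 to 84.1 FPKM in MDA-MB-231 and 14.5 to 98.8 FPKM in LM2-4175.

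When the FPKM of the 10 genes was added, MDA-MB-231 reached 299 and LM2-4175 470.0, a ratio of 1.57. The sums of the lower and the upper bounds were 220 and 379 in MDA-MB-231 and 350.3 and 590 in LM2-4175, so the ranges of the sums overlap. The roles into which the sum is divided here were assigned after the values were seen. Nuclear phosphatases went from 87.5 to 212 FPKM in sum and made up 124 of the 171 FPKM by which the total differed. Their share of the total was 29.2% in the parental line and 45% in LM2-4175, that of DUSP5 alone 6.32% and 17.8%. The cytoplasmic phosphatases had 106 and 119 FPKM in sum and held 35.3% and 25.4% of the total. For the Sprouty genes the sums were 75.8 and 102 FPKM (25.3% and 21.6% of the total), and for the Spred genes 30.5 and 37.5 FPKM (10.2% and 7.97%).

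**Figure D3:**
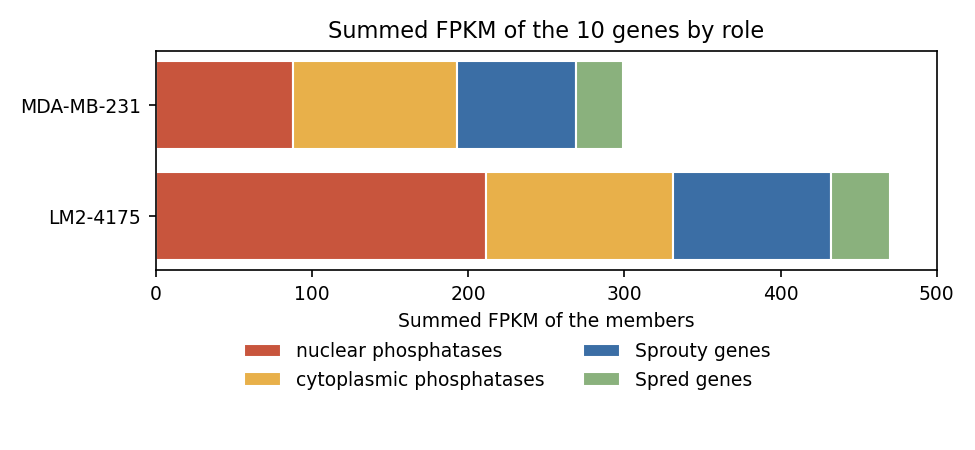
Summed FPKM of the 10 genes in each cell line, divided by role into the nuclear phosphatases DUSP1, DUSP4 and DUSP5, the cytoplasmic phosphatases DUSP6 and DUSP7, the Sprouty genes SPRY1, SPRY2 and SPRY4, and the Spred genes SPRED1 and SPRED2. The nuclear phosphatases account for 87.5 FPKM in MDA-MB-231 and 212 FPKM in LM2-4175, and the other roles differ by 6.95 to 25.8 FPKM. The roles were assigned after the values were seen.

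Relatives of these genes that are not among the 10 were examined next, with the other phosphatases of MAP kinases and the remaining Sprouty and Spred genes in a list of 8. Of its 5 genes tested, 0 were called higher and 1 lower (4.67% and 4.61% of all genes tested). The FPKM was higher in LM2-4175 for 2 of the 5 and lower for 3, and the median log2 difference was -0.09. STYXL1, a relative without phosphatase activity, fell from 48.6 FPKM (35.1 to 62.0) to 25.8 FPKM (18.1 to 33.6). It was no longer called lower at 2-fold, with FPKM scaled to equal sums or after quantile normalization. DUSP10, which prefers JNK and p38, had 26.3 FPKM (19.1 to 33.5) and 16.3 FPKM (11.6 to 21.1) and was not called. The higher FPKM was in LM2-4175 for DUSP16, with 5.01 and 7.12 FPKM, and for DUSP8, with 0.876 and 1.99 FPKM. Neither of them was called. The genes of this list named without a call were chosen after their values were seen. DUSP2, the other nuclear phosphatase of this class, had 0.232 FPKM in MDA-MB-231 and 0.108 FPKM in LM2-4175 and was too low to be tested. DUSP9, a cytoplasmic relative of DUSP6, was at 0.236 and 0.0756 FPKM, and SPRY3 was listed at 0 in MDA-MB-231.

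Other negative regulators of receptors and ERK formed a list of 12 genes, all tested, with a median log2 difference of 0.15. Of these, 2 were called higher and 0 lower (4.67% and 4.61% of all genes tested). SH2B3, an adaptor that restrains cytokine and growth factor receptors, rose from 29.0 FPKM (22 to 36.0) to 83.4 FPKM (63.9 to 103). TRIB1, a pseudokinase that directs proteins to degradation, rose from 3.49 FPKM (2.26 to 4.73) to 7.95 FPKM (5.55 to 10.4), and was not called at 2-fold. The other 10 genes of the list were not called.

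The cascade itself showed no call. Of all genes tested, 4.67% were called higher and 4.61% lower. Of 13 genes tested for RAS and its activation, 0 were called in either direction, with a median log2 difference of 0.11. HRAS had 94.7 FPKM in MDA-MB-231 and 83.3 FPKM in LM2-4175, and the adaptor gene GRB2 had 77.4 and 74.0 FPKM. The adaptor gene SHC1 had a status other than OK in MDA-MB-231 and was not tested. Of 12 genes for RAF, MEK and ERK kinases and their scaffolds, 0 were called either, with a median of -0.03. The most abundant of these were PEA15, which keeps ERK in the cytoplasm, with 417 FPKM (285 to 550.0) and 284 FPKM (194 to 374), and the scaffold gene IQGAP1 with 141 FPKM (65.7 to 217) and 254 FPKM (112 to 397). Chosen after its values were seen, MAPK3, which encodes an ERK kinase, had 39.6 and 42.8 FPKM.

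Genes that respond to ERK, other than the feedback genes, gave 5 calls. Of 17 genes tested in a list of 20, 4 were called higher and 1 lower (4.67% and 4.61% of all genes tested), and the median log2 difference was 0.33. The cytokine gene LIF rose from 19.3 FPKM (10.8 to 27.7) to 83.5 FPKM (48.3 to 119), and SPHK1, which encodes sphingosine kinase, from 7.97 FPKM (3.22 to 12.7) to 20.4 FPKM (12.8 to 27.9), with bounds that lay only 1.01-fold apart. HBEGF, a ligand of the EGF receptor, rose from 30.7 FPKM (23.5 to 38) to 63.3 FPKM (48.7 to 77.9). The urokinase receptor gene PLAUR, named after its values were seen, rose from 56.4 to 101 FPKM and was not called at 2-fold. FOS, an immediate early gene of the AP-1 family, fell from 17.6 FPKM (12.6 to 22.7) to 2.99 FPKM (1.84 to 4.14), against the direction of the others called. The list's EGR1 (9.87 and 12.8 FPKM), CCND1 (146 and 184 FPKM), ETV4 (40.2 and 36.2 FPKM) and ETV5 (23.5 and 32.7 FPKM), also named after their values were seen, were not called.

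JNK and p38 kinases, the other substrates of some of the phosphatases, gave 0 calls among 6 genes tested (median log2 difference 0.09). MAPK8 was at 52.3 and 79.0 FPKM and MAPK14 at 63.8 and 51.9 FPKM. Of 10 transcription factors known from the promoters of feedback genes, 0 were called (median -0.13). ETS1 was at 77.9 FPKM (58.7 to 97.1) in the parental line and at 118 FPKM (89.1 to 147) in LM2-4175, and ELK3 had 57.4 and 62.3 FPKM. Over all 7 lists, 6 of 75 genes tested were called higher (8%) and 2 lower (2.67%), beside 4.67% and 4.61% of all genes tested.

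**Figure D4:**
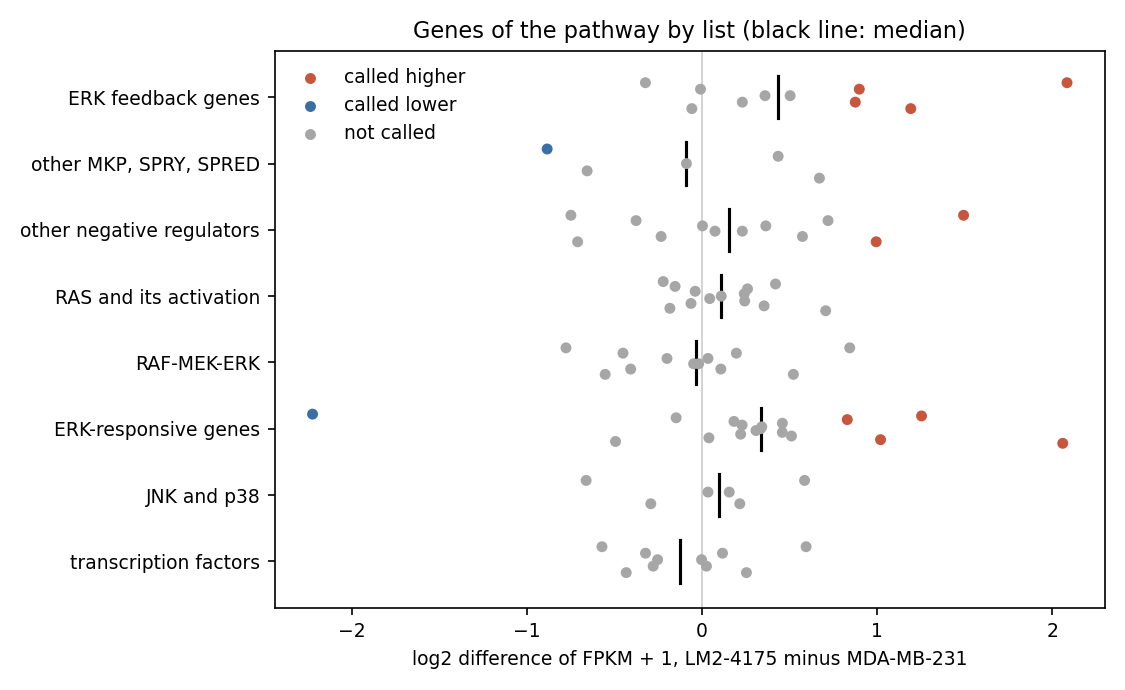
Log2 difference of FPKM + 1 (LM2-4175 minus MDA-MB-231) of each gene tested, for the 10 feedback genes and the 7 lists of pathway genes, with called genes in colour and the median of each list as a black line. The medians lie between -0.13 and 0.43, and the points called are DUSP1, DUSP4, DUSP5 and SPRY4 in the top row, 1 lower gene below it, 2 higher negative regulators, and 4 higher genes and 1 lower gene among the ERK-responsive genes.

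The surroundings of the 4 genes called were described with the protein-coding genes tested that reached into the 3 Mb before or after each gene (start sites can lie farther away), placed by GENCODE 44 on GRCh37. Around DUSP5 there were 13 such genes, with a median log2 difference of -0.01 and a highest value of 0.58, and 0 were called. Around SPRY4, 52 genes had a median of 0.00, with 2 called higher and 2 lower. Of these neighbours, 1 had a larger log2 difference than SPRY4, at 1.26, and was not called. HBEGF of the ERK-responsive list is 1 of these neighbours, with its start 1.98 Mb away. The 29 neighbours of DUSP4 had a median of -0.09, none of them as high as DUSP4, with 0 called higher and 4 lower (CLU, SCARA3, NRG1 and GSR, chosen after their values were seen). For DUSP1 the 18 neighbours had a median of 0.09, with 3 calls higher and 0 lower. These 3 also had larger log2 differences than DUSP1, up to 2.03. The nearest of the 3, SH3PXD2B, whose start is 0.317 Mb away, had 2.49 and 5.84 FPKM. Around the 6 genes not called, the medians lay between -0.14 and 0.27. Beside these counts of neighbours, 4.67% of all genes tested were called higher and 4.61% lower.

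**Figure D5:**
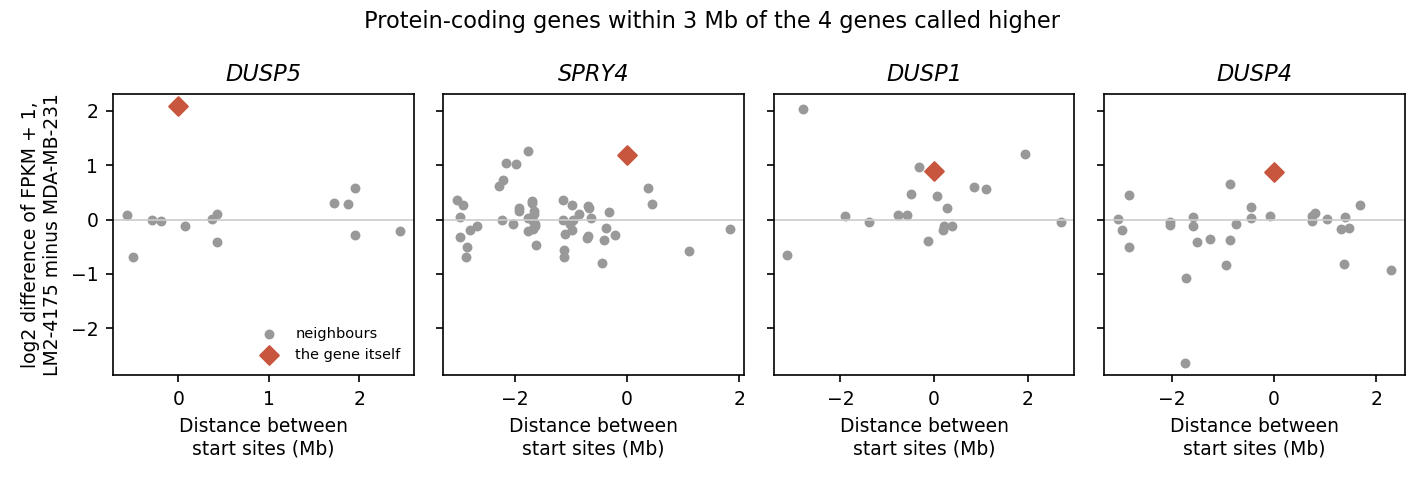
Log2 difference of FPKM + 1 of protein-coding genes reaching into the 3 Mb on either side (grey points) of DUSP5, SPRY4, DUSP1 and DUSP4 (red diamonds), against the distance between start sites in Mb along the chromosome. The medians of the neighbours are -0.01, 0.00, 0.09 and -0.09, and the genes themselves stand at 2.08, 1.19, 0.90 and 0.87. Above the gene itself lie 1 neighbour of SPRY4 and 3 neighbours of DUSP1.

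The label of the cells was read against marker genes. VIM, CD44, ITGB1 and AXL of mesenchymal triple-negative cells had 322 to 1768 FPKM. The hormone receptor genes ESR1 and PGR were at most at 0.0331 FPKM and CDH1 at most at 0.851 FPKM. The luminal marker GATA3, however, had 3.10 and 2.42 FPKM, EPCAM fell from 12.3 to 4.93 FPKM and ERBB2 had 35.0 and 22.8 FPKM. Of the leukocyte markers, 4 of 5 were below 0.5 FPKM in both cell lines (PTPRC at most 0.0767), with CD14 at 1.17 and 1.75 FPKM, and so were the 3 endothelial markers that were found in the table of the 4 listed. Among 4 fibroblast markers COL1A1 was called higher (3.16 and 31.0 FPKM), PDGFRB and LUM were called lower, and DCN was at most at 0.137 FPKM. The part of such differences in the values of the feedback genes was not tested.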

How the data were processed

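Per the study's methods, the authors aligned reads of TruSeq libraries to hg19 with TopHat 2.0 and quantified GENCODE 19 genes with Cufflinks. The submitters' processing notes also name Cuffdiff. The values that the authors deposited are FPKM, with a lower and an upper bound, in 1 pooled value per cell line. The normalization of library sizes, the use of strand and the meaning of the bounds are not given in the sources used here. A status other than OK was listed for 8 genes. Fragment counts per gene are not in the table. Low values of single-exon genes longer than 800 bases clustered at 0.0129 FPKM times kilobase in MDA-MB-231 and 0.0112 in LM2-4175. If this is the step of 1 fragment, 1 fragment is worth 1.15 times more in MDA-MB-231.

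Log2 differences of FPKM + 1 were computed in Python 3.11.15 with pandas 2.3.3 and NumPy 2.4.6 and drawn with Matplotlib 3.10.9. The pseudocount understates changes of low genes. Genes with a mean of at least 0.5 FPKM were tested, and a call needed a change of at least 1.5-fold and separate bounds. Such a call sets pooled libraries against each other, not conditions. The log2 differences and the calls were tested on simulated data with known fold changes, and the other steps were not. The simulated noise was set from the deposited bounds, read as 2 standard errors, although their meaning is not given. The simulation therefore cannot show whether the calls hold against the spread between libraries. The members and lists were chosen with earlier results of these data known, and the division of the members into roles was made after their values were seen. Named were all members, and in each list the up to 4 genes called with the largest change or, with none called, the 2 of highest mean. Genes named otherwise were chosen after their values were seen. With 2 values per gene, no genes were ranked by likeness of pattern. Positions and overlaps came from GENCODE 44 on GRCh37, the build of the files, and promoters from RefSeq on GRCh38.p14. The values of some genes of the lists are not reported here.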

Additional observations from a re-analysis of the deposited data

How the results depend on the processing

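No paired analysis was possible because the table holds 1 value per cell line, and for the same reason no replicate could be left out. Of 11 alternatives, 5 (the filters on mean FPKM and the fold or the bounds alone) could not remove a call of the 10 genes. Under the other 6, DUSP5 and SPRY4 were called higher in 6, and DUSP1 and DUSP4 in 5, and the other 6 genes were called under 0 of all 11. Among these 6 alternatives, a smaller or no pseudocount can only enlarge a log2 difference, so it could not remove a call either. The scalings raised the log2 difference of all 10 genes. Only the threshold of 2-fold was harder to pass for the genes called higher, and DUSP1 and DUSP4 failed it. With a threshold of 2-fold, 2 of the 10 genes were called higher, and 450 of all genes higher and 403 lower. In the pathway lists 4 genes were then called higher and 1 lower, without TRIB1, PLAUR and STYXL1. The fold of 1.5 alone gave 1434 higher and 1640 lower genes in all, and 12 higher and 7 lower in the lists. At a mean of at least 5 FPKM, 321 of all genes were called higher and 443 lower. With equal sums (TPM) and after quantile normalization, 1 gene of the lists was called lower. Equal sums moved the median of all genes by 0.08 and the calls to 784 higher and 574 lower. DUSP7 and SPRED1, with log2 differences of -0.06 and -0.01, were above 0 under 2 and 3 of the 11 alternatives, with highest values of 0.02 and 0.07. DUSP5 ranged from 2.08 to 2.19 and SPRY4 from 1.19 to 1.29. The width of the bounds limits what can be seen at these levels, since FPKM and upper bound lay a median of 38.6% apart over all genes in MDA-MB-231 and 23.2% to 34.3% for the 10 genes.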

Other observations

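The atypical dual-specificity phosphatases, small enzymes that lack the ERK-docking domain of the MAP kinase phosphatases, were listed after the values had been seen. Of 13 such genes in the table, 8 were tested. Of these 8, 0 were called in either direction, beside 4.67% called higher and 4.61% lower of all genes tested. The median log2 difference of the 8 was -0.01. The lowest was that of DUSP23 (17.5 and 11.1 FPKM, log2 difference -0.61). DUSP14 had 48.4 and 45.1 FPKM, DUSP12 had 32.2 and 31.8 FPKM, and DUSP3 had 28.0 and 33.5 FPKM.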
